A study of Arabidopsis thaliana with 6 samples.

Results

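Transcript levels in the octopus mutant of Arabidopsis thaliana were set against those in wild type, gene by gene and process by process. The 4 arrays of this comparison were chosen by their labels, out of 6 in the series: 2 of the mutant, named DYG25, and 2 of wild type, named WS. A further 2 arrays, of a line labelled 35SDYG25 that overexpresses OCTOPUS, entered the fit to estimate the spread and are shown beside the others. RNA came from whole untreated plants grown at 20 celsius on a medium given as MS/2, and was read on Affymetrix ATH1 arrays, on which a probe set of short oligonucleotides measures each transcript. Of the 3 groups, a label gives the accession of wild type alone, Wassilewskija. Plant age, the nature of the mutation and whether the 2 samples of a group were grown apart are not stated in the labels. The p-values therefore rest on a spread between samples that may be technical. The label 35SDYG25 names 35S, which is a viral promoter active in most plant tissues.

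OCTOPUS (OPS) is a membrane-associated protein of the provascular cells that give rise to phloem, the tissue that carries sugars from leaves to the rest of the plant. Loss of OPS interrupts the files of protophloem cells in roots and simplifies the vein network of cotyledons. In whole plants, RNA from phloem is diluted by that of all other tissues, and fewer cells of a type cannot be told apart from less RNA per cell. Plants lay down starch in chloroplasts by day and break it down at night, and many transcripts of starch breakdown, cold response and the circadian clock are known to follow the time of day. No time of harvest entered the comparison, and whether the groups were sampled at the same time of day was not tested. Markers of single organs described the material only in part: the root gene PYK10 read 12.37 and 12.50 in wild type against 12.33 and 12.45 in the mutant, while the shoot meristem gene CLV3 lay between 2.17 and 2.20 on those 4 arrays. Of 3 tested root markers 0 passed, also at an unadjusted p below 0.05, with EXPA7 at -0.43 and EXPA18 at -0.19, both root hair expansins, and FMA, a factor of guard cell fate, stood at -0.49 (limma adjusted p = 0.155).

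The OPS probe set could not serve as a check of the mutant label. It read 2.66 and 2.47 in wild type against 2.53 and 2.47 in the mutant, all close to the floor of the arrays, and 9.52 and 9.83 in the overexpressor. The mutant differed from wild type by -0.07 on the log2 scale (SE 0.171, limma adjusted p = 0.838).

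All values are log2 expression values, so that a difference of 1 is a doubling. A probe set was tested if its mean over the 6 arrays reached 4. Of these 12363 probe sets, 1736 differed between mutant and wild type at an adjusted p below 0.05, which is 14% of those tested. Of these, 846 (6.84%) were higher and 890 (7.2%) lower in the mutant, and 495 (4%) passed with a change of 2-fold or more, of which 185 (1.5%) were higher and 310 (2.51%) were lower. The 2 mutant values did not overlap the 2 wild-type values for any of the 1736, nor for 7729 (62.5%) of all probe sets tested, 3768 (30.5%) higher and 3961 (32%) lower. The median change over all tested probe sets was -0.01. The count rested on all 4 arrays: it was 683 without wild-type replicate 1, 810 without wild-type replicate 2, 167 without mutant replicate 1 and 278 without mutant replicate 2. In these refits the remaining array of the group was taken to vary as the other groups do.

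Of the 859 tested probe sets that reached 10 in the higher group, 295 (34.3%) passed, 172 (20%) higher and 123 (14.3%) lower. The share that passed was 8.60% at a mean level of 4 to 6, 14.3% at 6 to 8, 22.2% at 8 to 10 and 33.1% at 10 to 12, and 16.3% of the 141 probe sets at 12 or more. Between 10 and 12, 123 probe sets were higher in the mutant and 80 lower, while in each class from 4 to 10 more were lower than higher. The median size of the changes that passed was 0.92 at 4 to 6 and 0.60 at 10 to 12. These shares describe the arrays and were not compared by a test.

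**Figure D1:**
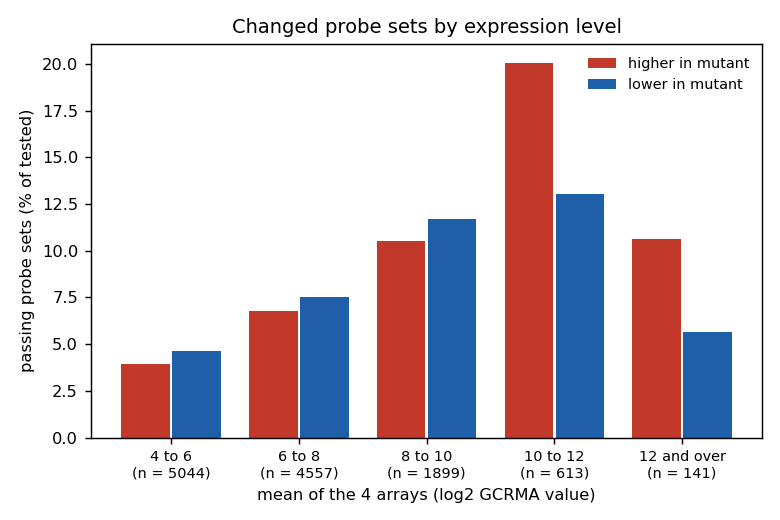
Share of tested probe sets that passed the test (percent, y axis) by mean level of the 4 arrays (log2 GCRMA value, x axis), with bars for those higher (red) and lower (blue) in the mutant. The share grew up to the class from 10 to 12, the first in which more probe sets were higher (123) than lower (80).

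**Figure D2:**
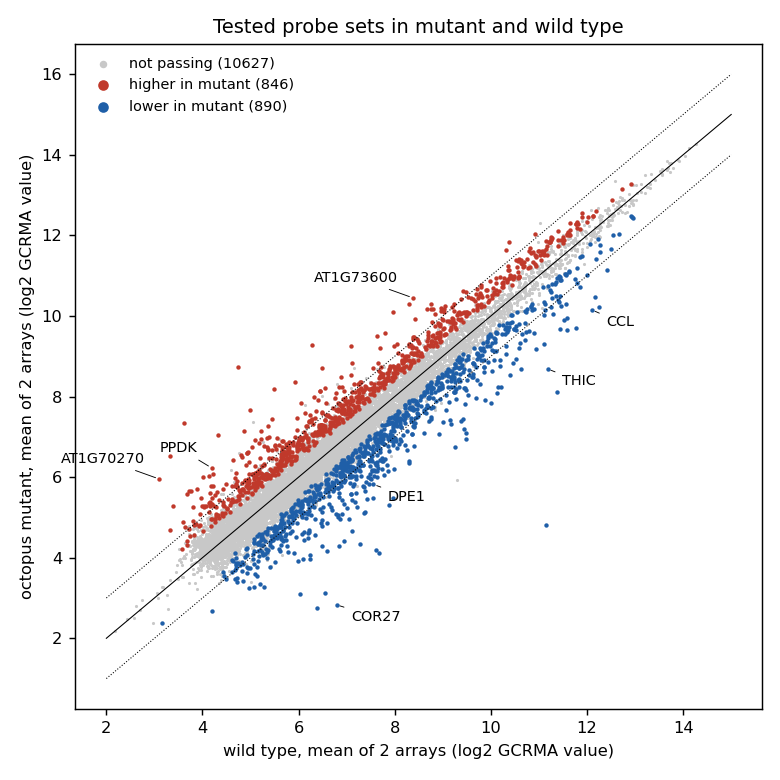
Mean of the 2 mutant arrays (y axis) against mean of the 2 wild-type arrays (x axis), both as log2 GCRMA values, for the 12363 tested probe sets. The solid line marks equality, the dotted lines a 2-fold difference, and the 846 higher (red) and 890 lower (blue) probe sets lie on either side of the unchanged ones (grey).

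The arrays were alike in their overall distribution. Array medians lay between 4.42 and 4.48 in wild type and mutant, and values correlated at 0.987 between the wild-type arrays, at 0.989 between the mutant arrays and at 0.957 to 0.963 across the groups. RNA quality was read from GAPDH. In one pair of probe sets the 3′ one exceeded the 5′ one by 1.42 and 1.12 in wild type and by 1.80 and 1.39 in the mutant. In another GAPDH pair the 3′ probe set read 11.84 and 11.94 in wild type, and the 5′ one 11.85 and 11.98. On the mutant arrays that pair read 11.7 and 11.87 against 11.64 and 11.8. The part of RNA quality in any result was not tested. The 24 probe sets for bacterial transcripts added as controls had a median of 7.44 on wild-type array 2 and of 4.84 to 5.77 on the other 5 arrays, so that array stood apart in them. All 4 wild-type and mutant arrays had the same maximum, 14.2679, against 14.2937 and 14.2061 in the overexpressor. Whether the overexpressor arrays were normalised apart from the others is not stated, so their values shown beside the others may not be on the same scale. With the overexpressor arrays left out of the fit, 1799 probe sets passed. Only 893 of the probe sets that passed name 1 gene, which is 13.7% of the 6532 tested ones that do, 430 (6.58%) of them higher and 463 (7.09%) lower. Loci named here by their AT number alone have no description in the tables used, and a role is given for them only where they belong to one of the gene lists.

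The largest named fall was that of COR27, which encodes a small cold-regulated protein that acts on the circadian clock. It read 6.96 and 6.62 in wild type, 2.88 and 2.78 in the mutant, and 6.75 and 6.85 in the overexpressor. Mutant arrays thus stood near the floor while the 4 others lay above 6.6, and the 15.6-fold fall (3.96 in log2 units, SE 0.165, limma adjusted p = 0.000357) is limited by that floor. AT4G33980, the homologue also called COR28, read 7.05 and 7.50 in wild type against 4.73 and 3.95 in the mutant, and fell by 2.94 (SE 0.271, adjusted p = 0.00239). Counts of list members are to be read against the 14% of tested probe sets that passed, 6.84% higher and 7.2% lower. Of the 3 genes of the clock list with a named probe set, which were all tested, these 2 fell and none rose. GI (GIGANTEA), a clock and flowering protein, was the third, at 6.77 and 7.02 in wild type against 6.57 and 6.63 in the mutant (adjusted p = 0.286).

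The next named falls in size were those of AT1G07050, from 7.85 and 7.49 to 4.29 and 3.92, and of AT1G19530, from 6.19 and 6.90 to 3.22 and 3.04. AT1G64590 followed, from 7.96 and 7.81 to 5.22 and 5.38. THIC, which makes the pyrimidine part of thiamine in chloroplasts, read 11.52 and 10.84 in wild type against 8.72 and 8.65 in the mutant, a fall by 2.50 (SE 0.201, adjusted p = 0.00149). It was the largest fall among transcripts at 10 or more whose probe set names 1 gene. CCL, a transcript known to be short-lived and to cycle with the clock, read 12.21 and 11.99 in wild type against 10.35 and 9.95 in the mutant, and fell by 1.95 (SE 0.144, adjusted p = 0.00125). Its overexpressor values of 12.01 and 12.02 lay within the wild-type range. In the same abundant class AT3G62550 fell by 1.92, AT5G02160 by 1.43 and AT2G25450 by 1.30. The other named falls of this size lay between 1.96 for AT5G38020 and 2.38 for AT4G32340. Of the 15 largest, 13 kept the call without each array in turn, all but AT2G39040 and AT4G36610.

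AT1G70270 had the largest named rise of the tested transcripts. It read 3.11 and 3.08 in wild type, 5.80 and 6.11 in the mutant and 3.31 and 3.25 in the overexpressor, a rise of 2.86 (SE 0.171, adjusted p = 0.00108). AT5G01870 rose from 7.29 and 6.91 to 9.40 and 9.10. AT1G73600, a methyltransferase of the pathway from phosphoethanolamine to phosphatidylcholine, the main membrane lipid outside plastids, read 8.47 and 8.28 in wild type against 10.37 and 10.53 in the mutant. Its rise of 2.08 (SE 0.146, adjusted p = 0.00122) was the largest among transcripts at 10 or more whose probe set names 1 gene. PMEAMT, an enzyme of the same step, read 10.27 and 10.18 in wild type against 10.28 and 10.32 in the mutant (limma adjusted p = 0.714). Thus 1 of the 2 genes of this list with a named probe set rose.

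In the list of carbon starvation and amino acid breakdown, 2 of 6 tested genes rose and none fell. PPDK, which makes phosphoenolpyruvate from pyruvate, read 3.95 and 4.42 in wild type, 6.23 and 6.23 in the mutant and 6.24 and 6.39 in the overexpressor. PPDK is among 411 tested probe sets printed to more than 2 decimals on a wild-type or mutant array. Its mutant values are 6.2295 and 6.2297, and the source of so close a match was not examined. ASPGB1, an asparaginase that frees ammonium from asparagine, read 3.72 and 3.80 in wild type, 5.67 and 5.65 in the mutant and 3.72 and 4.02 in the overexpressor. PPDK was thus at the mutant level in the overexpressor and ASPGB1 at the wild-type level. Both comparisons share the wild-type arrays. PPDK rose by 2.04 (SE 0.186, adjusted p = 0.00224) and ASPGB1 by 1.90 (SE 0.167, adjusted p = 0.00202). The branched-chain amino acid breakdown genes IVD and MCCB stood at -0.43 (adjusted p = 0.200) and -0.24 (adjusted p = 0.415). The median of the list was -0.31.

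Among the 15 largest named rises, AT5G48490, AT1G13650 and AT5G35970 rested on wild-type arrays that differed widely. AT5G48490 read 7.40 and 9.20 in wild type against 10.41 and 10.17 in the mutant, and its adjusted p of 0.0456 became 0.122 without the filter on low values. In AT1G13650 the wild-type arrays read 3.45 and 4.97, and in AT5G35970 6.99 and 8.60, with adjusted p of 0.100 and 0.121 without the filter. AT5G48490, AT1G13650, AT5G35970 and PPDK are among the 411 tested probe sets printed to more than 2 decimals. Of those 411, 47 (11.4%) passed, and the reason for the print format was not examined. Of the 15 rises, 8 kept the call without each array in turn: AT1G70270, AT5G01870, AT1G73600, PPDK, AT3G15650, ASPGB1, AT4G32950 and AT5G55570.

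**Figure D3:**
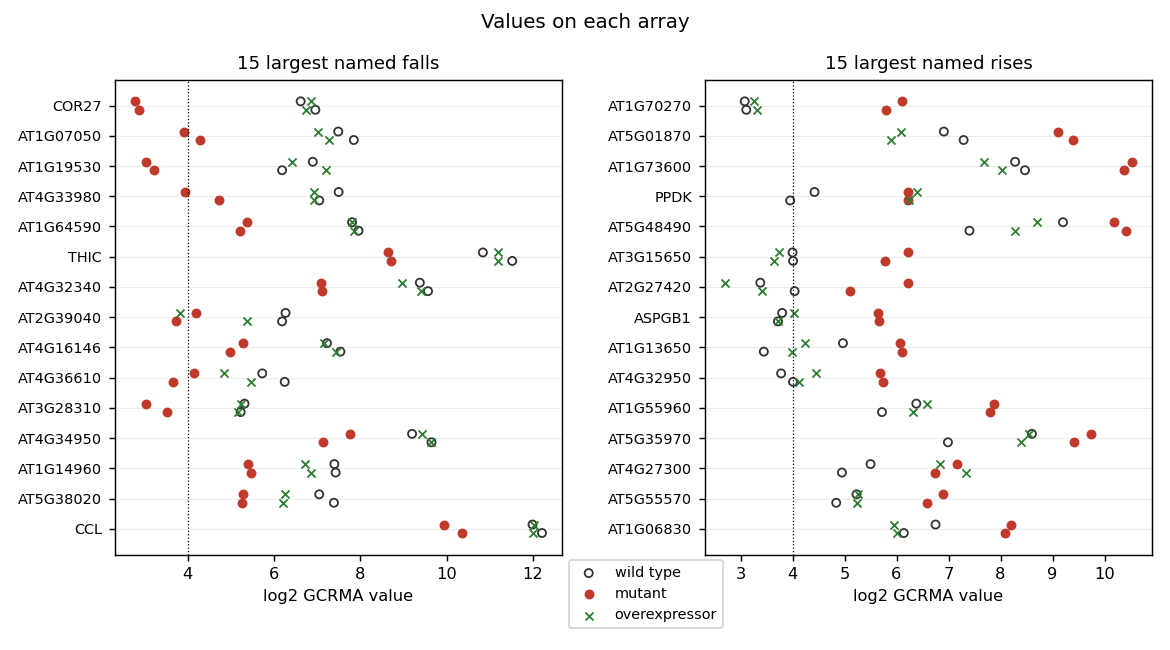
Log2 GCRMA value (x axis) on each array for the 15 largest named falls (left) and rises (right), with wild type as open circles, the mutant as red points and the overexpressor as green crosses. The dotted line marks 4, and COR27 lies under 3 on both mutant arrays and above 6.6 on the 4 others.

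The largest changes of all were in probe sets without a gene name in the tables used, which made up 12 of the 20 largest falls and 13 of the 20 largest rises. These 4 were picked after their values were seen. Probe set 251438_s_at read 11.62 and 10.69 in wild type, 5.79 and 3.83 in the mutant and 10.44 and 9.91 in the overexpressor, a fall by 6.35 (SE 0.605, adjusted p = 0.00245). Probe set 249850_at fell by 3.64, from 6.71 and 6.05 to 2.82 and 2.66. Probe set 261191_at rose by 3.99 (SE 0.326), from 4.36 and 5.11 to 8.31 and 9.14. Probe set 253502_at rose by 3.73, from 3.65 and 3.59 to 7.38 and 7.32. In each of these the overexpressor arrays lay closer to wild type than to the mutant.

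Some transcripts lay near the floor in one genotype and were clearly measured in the other. Of 43 probe sets with a mean below 4 in one group and at least 5 in the other, 26 (60.5%) passed in a fit without the filter on low values, 13 (30.2%) higher and 13 (30.2%) lower in the mutant. In that fit 4.44% of all 22746 probe sets passed, 2.04% higher and 2.39% lower. The choice by group means makes such probe sets differ, so nothing is read from the difference between these shares. Of the 26, 5 of those higher and 1 of those lower had a mean below 4 over the 6 arrays and were not tested with the filter. The count was 9 without wild-type replicate 1, 17 without wild-type replicate 2, 10 without mutant replicate 1 and 0 without mutant replicate 2. Over all 10383 probe sets under the filter, 97 passed, 42 higher and 55 lower.

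The largest rise of a named transcript in this class was that of AT1G80130, which read 2.49 and 2.44 in wild type, 5.58 and 6.50 in the mutant and 2.45 and 2.61 in the overexpressor. SWEET13, a sucrose transporter of the plasma membrane, read 2.99 and 2.82 in wild type, 5.12 and 5.69 in the mutant and 2.73 and 2.59 in the overexpressor. Its level was near the floor on 4 arrays and rose in the mutant by 2.50 (SE 0.224, adjusted p without the filter 0.0101). The call of SWEET13 depended on wild-type replicate 1 and on mutant replicate 2. The other named rises here were those of AT1G70270, ASPGB1, AT4G32950 and AT1G32190. Besides COR27 and AT1G19530, the named transcripts near the floor in the mutant were AT4G36610, AT3G28310, AT5G42200, AT4G14060, AT5G13900 and AT1G24430. They fell by 1.23 to 2.08.

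**Figure D4:**
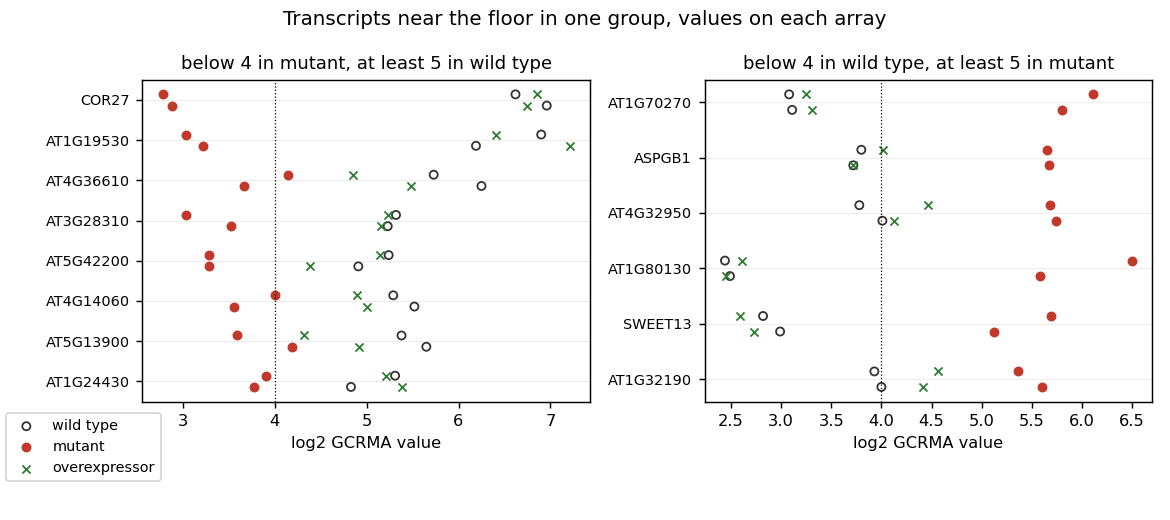
Log2 GCRMA value (x axis) on each array for the named transcripts with a mean below 4 in the mutant and at least 5 in wild type (left) and the reverse (right), in wild type (open circles), mutant (red) and overexpressor (green crosses). The dotted line marks 4, and on the right AT1G80130 and SWEET13 lie under 3 on all wild-type and overexpressor arrays.

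Close relatives among the sugar transporters moved in opposite directions. SWEET11, which releases sucrose for phloem loading in leaves, read 10.54 and 10.64 in wild type against 9.67 and 9.95 in the mutant, and fell by 0.78 (SE 0.123, adjusted p = 0.0102). It was the one gene of the phloem list with a named probe set. Of the 5 tested genes in the list of sugar and amino acid transporters, SWEET11 alone passed, and SWEET13 rose in the fit without a filter. The call of SWEET11 depended on wild-type replicate 2 and on mutant replicate 1. SWEET16, a sugar transporter of the vacuole membrane, stood at -0.55 (adjusted p = 0.0587), SWEET2, of the same membrane, at 0.57 (adjusted p = 0.0660) and SWEET17, a vacuolar fructose transporter, at 0.25 (adjusted p = 0.351). Of 3 vascular patterning genes tested 0 passed by limma, also at an unadjusted p below 0.05: CLE41, which encodes a peptide that keeps cambium cells dividing, PHV, a factor of organ polarity and vein pattern, and LHW, a factor of vascular cell division, stood between 0.06 and 0.24. The xylan synthesis gene GUT2 read 4.52 and 4.58 in wild type against 3.33 and 4.54 in the mutant (adjusted p = 0.290).

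Both genes of the starch breakdown list with a named probe set fell. DPE1, the plastid enzyme that rearranges short glucans during starch breakdown, read 7.76 and 7.35 in wild type, 5.67 and 5.97 in the mutant and 7.30 and 7.47 in the overexpressor. PWD, which adds phosphate to starch so that it can be degraded, read 9.45 and 8.86 in wild type, 7.48 and 7.37 in the mutant and 8.91 and 8.81 in the overexpressor. The mutant arrays were the lowest of the 6 for both. DPE1 fell by 1.74 (SE 0.183, adjusted p = 0.00326) and PWD by 1.73 (SE 0.190, adjusted p = 0.00354), and both kept the call without each array in turn. The starch branching enzyme SBE2.2 read 7.04 and 7.00 in wild type against 6.98 and 7.14 in the mutant (change 0.04, adjusted p = 0.873), and APL3, a subunit of the first enzyme of starch synthesis, lay between 3.09 and 3.31 on these 4 arrays.

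Of 4 tested genes of the cold and abscisic acid list, 2 fell and none rose, with a median of -1.19. COR47, a dehydrin that protects cells during cold and drought, read 11.37 and 11.23 in wild type, 9.85 and 10.24 in the mutant and 10.92 and 10.72 in the overexpressor. LTI30, another dehydrin, read 7.92 and 8.15 in wild type against 6.84 and 6.96 in the mutant. They fell by 1.25 (SE 0.147, adjusted p = 0.00441) and 1.14 (SE 0.165, adjusted p = 0.00805). COR15B, a chloroplast protein of freezing tolerance, read 5.77 and 4.94 in wild type against 3.68 and 4.51 in the mutant, a difference of -1.26 that did not pass (adjusted p = 0.0595). STZ, a zinc-finger repressor of stress genes, differed as much within each genotype, with 6.41 and 3.68 in wild type against 3.19 and 5.81 in the mutant.

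LHCB4.2 and LHCB4.3, which encode minor antenna proteins of photosystem II, rose. In the list of nuclear photosynthesis genes 3 of 11 tested rose, none fell, and the median was 0.03. LHCB4.2 read 9.84 and 10.80 in wild type against 11.63 and 11.63 in the mutant (rise of 1.31, SE 0.277, adjusted p = 0.0254). LHCB4.3 read 6.60 and 6.08 in wild type against 7.33 and 7.60 in the mutant (rise of 1.12, SE 0.210, adjusted p = 0.0170). PSBY, a small protein of photosystem II, rose by 0.36 (SE 0.088, adjusted p = 0.0378). LHCB4.2 and PSBY lost the call without the filter, at adjusted p of 0.0771 and 0.125, and LHCB4.2 and LHCB4.3 lost it without either mutant array.

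Of 65 tested plastid-encoded transcripts, 8 (12.3%) passed and all 8 were lower, with a median of -0.08 over the 65. Of all tested probe sets 14% passed and 7.2% were lower, so the share of plastid transcripts that passed lay near that of all transcripts. The atpF transcript, for a stalk subunit of the chloroplast ATP synthase, read 11.70 and 11.20 in wild type, 10.18 and 10.30 in the mutant and 9.90 and 9.52 in the overexpressor. The psbE transcript, for a cytochrome subunit of photosystem II, read 11.52 and 11.35 in wild type, 10.36 and 10.64 in the mutant and 10.46 and 10.67 in the overexpressor. Both other groups lay below wild type in these 2 transcripts, and they share the same wild-type arrays. In the mutant atpF fell by 1.21 (SE 0.190, adjusted p = 0.01004) and psbE by 0.94 (SE 0.131, adjusted p = 0.00699). The photosystem II genes psbD and psbF fell by 0.91 and 0.64. Named after their values were seen, the others were petG of the cytochrome b6f complex (-1.10), atpH of the ATP synthase (-1.03), ycf4 of photosystem I assembly (-0.93) and psaJ of photosystem I (-0.84). Plastid transcripts mostly lack the poly(A) tail from which many labelling kits prime, and the labels do not name the kit.

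Genes for the NDH complex, which passes electrons around photosystem I, were grouped after the data were seen, as were the other lists so marked. The counts and medians of such lists say nothing about a process as a whole, as their values were known beforehand. Of 8 tested nuclear genes for its subunits and assembly, 3 fell and none rose, with a median of -0.34. PIFI, a stroma protein needed for NDH activity, read 10.79 and 10.69 in wild type, 9.59 and 9.63 in the mutant and 10.73 and 10.64 in the overexpressor, a fall by 1.13 (SE 0.091, adjusted p = 0.00149). It kept the call without each array. The assembly factor CRR42 fell by 0.83 (SE 0.169, adjusted p = 0.0225) and the subunit NdhL by 0.55 (SE 0.128, adjusted p = 0.0347). Both lost the call without the filter, at adjusted p of 0.0533 and 0.0667.

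Some genes for RNA polymerase subunits and for the processing of ribosomal and transfer RNA rose, in 2 lists formed after the data were seen. Of 9 tested polymerase subunits 4 rose and none fell (median 0.42). NRPA1, the largest subunit of RNA polymerase I, which copies ribosomal RNA genes, read 3.88 and 4.39 in wild type against 5.29 and 5.44 in the mutant. NRPA2, its second subunit, read 5.84 and 5.72 in wild type against 6.66 and 6.60 in the mutant. These rose by 1.23 (SE 0.213, adjusted p = 0.0139) and 0.85 (SE 0.137, adjusted p = 0.0109). NRPB6A and NRPB9B, small RNA polymerase subunits, rose by 0.68 each, and NRPB9B lost the call without the filter (limma adjusted p = 0.0823).

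Of 8 tested processing genes 4 rose, none fell, and all 8 differences were above 0 (median 0.69). As their values were known when the list was made, these counts say nothing about RNA processing as a whole. YAO, a nucleolar protein of ribosomal RNA processing, read 5.27 and 5.49 in wild type against 6.33 and 6.63 in the mutant. IMP4, which acts with the U3 particle on ribosomal RNA, read 5.87 and 5.68 in wild type against 6.70 and 6.68 in the mutant. PCN, a WD-repeat protein of embryo and meristem growth, read 4.92 and 5.01 in wild type against 5.83 and 5.86 in the mutant. They rose by 1.10 (SE 0.198, adjusted p = 0.0153), 0.92 (SE 0.136, adjusted p = 0.00844) and 0.88 (SE 0.137, adjusted p = 0.00993). TRZ3, which trims transfer RNA, rose by 0.66 (adjusted p = 0.0267) and lost the call without the filter. The control probe set for 25S ribosomal RNA was higher in the mutant, at 8.03 and 11.2 against 6.42 and 5.86. That for 5S ribosomal RNA, near the floor, read 3.08 and 2.79 in the mutant against 3.01 and 2.68 in wild type. The part of either in these results was not tested. None of the 8 calls in these 2 lists held without each array in turn.

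In the autophagy list, which follows the delivery of cell contents to the vacuole, 4 of 11 tested genes fell, none rose, and the median was -0.28. APG8A read 8.63 and 8.96 in wild type against 7.98 and 7.93 in the mutant. It and its relatives encode ATG8, the small protein that coats the autophagosome membrane. ATG8D read 7.10 and 6.91 against 6.47 and 6.04, and ATG8H 7.40 and 7.57 against 6.97 and 6.94. ATG3, the enzyme that joins ATG8 to lipid, read 7.82 and 7.85 in wild type against 7.31 and 7.33 in the mutant. Falls ranged from 0.52 for ATG3 (SE 0.106, adjusted p = 0.0236) to 0.84 for APG8A (SE 0.218, adjusted p = 0.0476). APG8A and ATG8D lost the call without the filter, at adjusted p of 0.115 and 0.111. With the replicate number in the limma fit APG8A, ATG3 and ATG8H lost it, the last 2 at adjusted p of 0.0529 and 0.0600. Each call in this list rested on all 4 wild-type and mutant arrays.

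In a list of vacuolar proton pumps and proteases added after the data were seen, 3 of 5 tested genes fell and none rose (median -0.42). GAMMA-VPE, a protease that processes vacuolar proteins, read 10.73 and 10.71 in wild type, 9.75 and 9.92 in the mutant and 10.95 and 10.91 in the overexpressor. It fell by 0.89 (SE 0.094, adjusted p = 0.00334) and kept the call without each array. The proton pump subunit VHA-A3 fell by 0.50 (SE 0.107, adjusted p = 0.0271) and the aspartic protease APA1 by 0.42 (SE 0.109, adjusted p = 0.0472). APA1 lost the call without the filter, at an adjusted p of 0.127. Of the 2 tested cysteine proteases, CP1 rose by 0.74 (adjusted p = 0.0477) and lost the call without the filter (adjusted p = 0.106).

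Genes of the cytoskeleton were also grouped after the data were seen, so their counts and medians say nothing about the cytoskeleton as a whole. All 7 tested tubulin genes lay below 0 (median -0.44) and 2 of them fell. TUB9, a beta-tubulin, read 9.18 and 9.28 in wild type against 8.45 and 8.50 in the mutant. TUA6, an alpha-tubulin, read 11.43 and 11.47 in wild type against 10.84 and 10.95 in the mutant. They fell by 0.76 (SE 0.112, adjusted p = 0.00840) and 0.56 (SE 0.085, adjusted p = 0.00936). Of 4 tested LIM genes, whose proteins bundle actin filaments, WLIM1 fell by 1.03 (SE 0.124, adjusted p = 0.00463), from 9.17 and 8.96 to 7.95 and 8.12. WLIM2a fell by 0.77 (SE 0.097, adjusted p = 0.00516), from 8.95 and 9.0 to 8.18 and 8.23. In the NET family of actin-binding proteins 2 of 5 tested rose, NET4B by 0.67 (adjusted p = 0.0373) and NET1D by 0.53 (adjusted p = 0.0403), and both lost the call without the filter.

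Cell wall genes changed singly and in both directions. Of 11 tested members of the expansin superfamily, whose expansins loosen cell walls during growth, 1 rose and 1 fell, near the share of all tested probe sets, and the median was 0.05. EXPA8 read 8.37 and 9.23 in wild type against 10.09 and 10.26 in the mutant (rise of 1.38, SE 0.254, adjusted p = 0.0165). It lost the call without the filter (adjusted p = 0.0515). The expansin-like gene EXLA1 read 7.83 and 7.84 in wild type against 6.35 and 6.27 in the mutant (fall by 1.52, SE 0.116, adjusted p = 0.00129), and kept the call without each array. XTH20, which cuts and rejoins xyloglucan, rose by 1.05 (SE 0.219, adjusted p = 0.0242) as 1 of 7 tested in its family, and lost the call without the filter (adjusted p = 0.0721). Of 16 tested genes of the TBL family, added after the data were seen, TBL45 rose by 0.98 and TBL38 fell by 0.87, again a count near the share of all tested probe sets. TBL proteins add acetyl groups to wall polysaccharides. By limma 0 of 5 class III peroxidases and 0 of 2 pectin-modifying genes tested passed, with 1 and 0 at an unadjusted p below 0.05. HRGP1, a wall glycoprotein, stood at 0.45 (adjusted p = 0.0938).

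**Figure D5:**
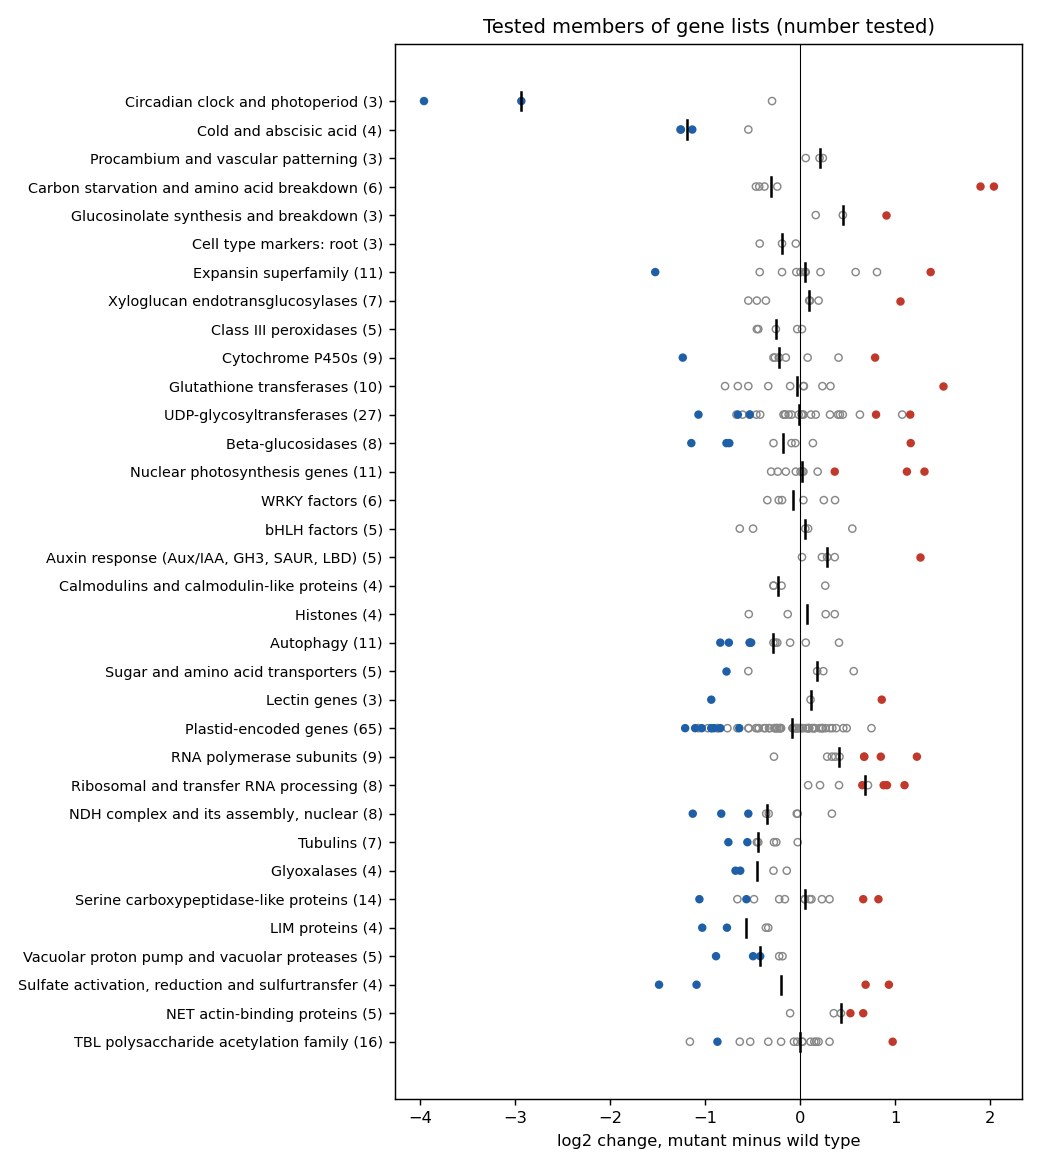
Log2 change of the mutant against wild type (x axis) for the tested members of each gene list with at least 3 of them (y axis, number tested in brackets), with members that passed as filled points (red higher, blue lower), the others open, and the list median as a bar. Most members of most lists did not pass, and over all tested probe sets 6.84% passed higher and 7.2% lower.

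Enzymes that act on small molecules were divided in the same way. Of 27 tested UDP-glycosyltransferases, which attach sugars to hormones and secondary metabolites, 2 rose and 3 fell, with a median of -0.01, which is near the 14% of all tested probe sets that passed. UGT88A1 read 7.40 and 7.92 in wild type against 8.98 and 8.66 in the mutant (rise of 1.16, SE 0.193, adjusted p = 0.0120). UGT73B1 read 6.31 and 6.34 in wild type against 5.27 and 5.24 in the mutant (fall by 1.07, SE 0.126, adjusted p = 0.00442). UGT72E1, which glucosylates lignin precursors, rose by 0.80 and UGT80B1, a sterol glucosyltransferase, fell by 0.53. The remaining one, UGT76E11, fell by 0.66 and is named after its value was seen. UGT72E1, UGT80B1 and UGT76E11 lost the call without the filter, at adjusted p of 0.0868, 0.0855 and 0.121. Of 8 tested beta-glucosidases, which remove such sugars, BGLU40 rose by 1.17 (adjusted p = 0.00807), while BGLU44, BGLU46 and BGLU16 fell by 1.15, 0.78 and 0.75. BGLU44 was the most abundant of these, at 10.12 and 9.99 in wild type against 8.83 and 8.99 in the mutant, and BGLU16 lost the call without the filter (adjusted p = 0.104).

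GSTU20 was the only one of 10 tested glutathione transferases, which detoxify by adding glutathione, to pass. It read 8.69 and 8.66 in wild type, 9.95 and 10.40 in the mutant and 8.23 and 8.44 in the overexpressor, a rise of 1.50 (SE 0.162, adjusted p = 0.00343). Of 9 tested cytochrome P450s, CYP71B37 fell by 1.24 (adjusted p = 0.0237) and CYP71B26 rose by 0.79 (adjusted p = 0.0260), and both lost the call without the filter. BCAT4, the first step in making the methionine-derived side chains of glucosinolates, read 8.63 and 8.33 in wild type against 9.36 and 9.40 in the mutant. It rose by 0.90 (adjusted p = 0.0258) as 1 of 3 tested in its list, and lost the call without the filter (adjusted p = 0.0675). DFR, a reductase of anthocyanin synthesis, lay under the filter and read 2.25 and 2.32 in wild type, 3.71 and 4.37 in the mutant and 2.13 and 2.29 in the overexpressor. It rose by 1.75 in the fit without it (adjusted p = 0.0160). UF3GT, an anthocyanin glycosyltransferase, rose there from 2.41 and 2.49 to 3.15 and 3.05, both close to the floor (adjusted p = 0.0183).

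The 4 genes of a sulfur metabolism list, which was formed after the data were seen, all passed. As their values were known when the list was made, this count says nothing about the pathway as a whole. The ATP sulfurylases, which activate sulfate, moved in opposite directions. APS4 read 9.41 and 9.25 in wild type against 8.16 and 8.32 in the mutant, and APS3 read 6.07 and 5.96 in wild type against 7.14 and 6.76 in the mutant. APS4 fell by 1.09 (SE 0.112, adjusted p = 0.00305) and APS3 rose by 0.94 (SE 0.165, adjusted p = 0.0147). SIR, the sulfite reductase of plastids, rose by 0.69 (SE 0.105, adjusted p = 0.00911), with mutant arrays above both wild-type arrays. STR18, a sulfurtransferase, read 7.76 and 7.19 in wild type against 6.36 and 5.62 in the mutant and fell by 1.49 (SE 0.275, adjusted p = 0.0168). It lost the call without the filter (adjusted p = 0.0506). Of 4 tested glyoxalases, likewise grouped afterwards, which remove the by-product methylglyoxal, GLY2 fell by 0.68 (adjusted p = 0.00943) and GLX2-5 by 0.63 (adjusted p = 0.0205).

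Hormone and transcription factor lists held few tested genes, and their counts are to be read against the 14% of all tested probe sets that passed. Of 2 jasmonate genes with a named probe set 0 were tested. GH3.3, which couples auxin to amino acids and is induced by auxin, read 5.12 and 5.29 in wild type, 6.44 and 6.49 in the mutant and 5.24 and 5.53 in the overexpressor. It rose by 1.26 (SE 0.159, adjusted p = 0.00516) as 1 of 5 tested auxin-response genes. By limma 0 of 6 WRKY, 2 MYB and 5 bHLH factors tested passed, and at an unadjusted p below 0.05 the counts were 0, 0 and 3. The 3 bHLH factors were bHLH104, bHLH121 and bHLH34, at -0.50, -0.64 and 0.55 (adjusted p = 0.0778, 0.102 and 0.157). These factors are known to act in iron uptake. Of 4 calmodulin-like genes and 4 histones tested 0 passed, with 0 and 1 at an unadjusted p below 0.05, the linker histone HON4 (-0.54, adjusted p = 0.0796). A p above the threshold does not show that these genes were equal in both genotypes. WRKY53, a factor of leaf ageing and defence, read 4.54 and 4.38 in wild type, 4.34 and 3.89 in the mutant and 6.02 and 6.19 in the overexpressor, with no call in the mutant (adjusted p = 0.283). EIN3, the main factor of ethylene response, and PORB, which makes chlorophyllide in light, stood at -0.06 and -0.26 (adjusted p = 0.780 and 0.209). Among lectins, which bind sugars, EULS3 fell by 0.94 (adjusted p = 0.0106) and JAL22 rose by 0.86 (adjusted p = 0.0146) of 3 tested. Of 14 tested serine carboxypeptidase-like genes, grouped after the data were seen, 2 rose and 2 fell, with SCPL49 down by 1.06 (SE 0.113, adjusted p = 0.00335).

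Of the probe sets that passed, 132 carry a gene symbol beyond the locus name, 59 higher and 73 lower, list members included. A few of them from outside the lists are given here, chosen after their values were seen. HYH, a transcription factor of light responses and a close relative of HY5, read 4.90 and 4.75 in wild type against 6.26 and 6.73 in the mutant, a rise of 1.67 (SE 0.299, adjusted p = 0.0152). Cpn60beta2, a chaperonin subunit of chloroplasts, rose by 1.22 (SE 0.136, adjusted p = 0.00371), from 9.03 and 8.65 to 10.08 and 10.04. PDC2, a pyruvate decarboxylase of fermentation, read 7.85 and 7.63 in wild type against 5.94 and 6.44 in the mutant, a fall by 1.55 (SE 0.276, adjusted p = 0.0150). GID1A, a gibberellin receptor, fell by 1.23 (SE 0.191, adjusted p = 0.00981), from 7.14 and 7.24 to 5.78 and 6.14. TMT1, which loads sugars into the vacuole, fell by 0.69 (SE 0.126, adjusted p = 0.0163), from 8.36 and 8.38 to 7.58 and 7.79. COB (COBRA), a wall protein of oriented cell expansion, fell by 0.73 (SE 0.131, adjusted p = 0.0152), from 10.02 and 10.15 to 9.25 and 9.46.

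Called genes lay on every chromosome. On the 5 nuclear chromosomes 12.5% to 15.2% of named tested probe sets passed. Of 1719 pairs of neighbouring genes with both tested, both passed in 43, and in 27 of these they moved the same way. Of all tested probe sets that name 1 gene 13.7% passed. The counts of pairs were not set against those of unrelated genes, so nothing is read from them. In 6 pairs both changed at least 2-fold in the same direction, and all 6 were lower in the mutant. They include AT1G07040 with AT1G07050 (-1.05 and -3.57), AT3G28310 with AT3G28320 (-2.0 and -1.90) and AT5G38020 with AT5G38030 (-1.96 and -1.57). Probe sets of neighbouring copies of a gene can share sequence, which was not examined here. Of 40 genes with more than 1 tested probe set, all passed in 5, each in 1 direction, some in 12 and none in 23.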

How the data were processed

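Per the labels' protocols, total RNA of whole plants was amplified and given a biotin label before hybridisation to ATH1 arrays. The authors deposited log2 expression values made with GCRMA, per the submitters' processing notes. GCRMA removes a background modelled from probe sequence, normalises arrays and summarises each probe set. The log2 scale was read from the values, and no source used here says which arrays were normalised in one run; their highest values differ between the overexpressor and the other arrays. Names came from the platform annotation: of 22746 without the 64 controls, 13513 name 1 gene, 13436 of them matched to TAIR10.1 by gene number, 503 name several and 8730 are not listed.

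The values were fitted as deposited with limma 3.58.1 in R 4.3.3 (two-sided tests, lmFit and trended eBayes), with all 6 arrays in 3 groups and no covariates (3 residual degrees of freedom, prior 3.98). A mean of 4 or more admitted 12363 probe sets to the test. The call is a Benjamini-Hochberg adjusted p below 0.05 over all of them. Probe sets near the floor came from the same fit on all 22746. Errors are standard errors of the fit, and the number of arrays limits the precision. The script was tested on simulated data.

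Named genes are OPS, the 15 largest rises and falls that passed, name 1 gene and do not overlap between groups, up to 10 each way of the same kind near the floor and 5 at a level of at least 10, and up to 4 tested members of each gene list with the smallest p. Few genes of the lists given by locus could be read: 49 of 353 have a named probe set. Probe sets of other genes caught by a family name were left out by hand. The members, lists and rules were chosen with earlier results of these data known, 11 of the 55 lists after the values were seen, so no list was tested as a set. Samples of the same number did not deviate together (correlation -0.24 between wild type and mutant), so no block was used. Alternatives covered the filter, the arrays in the fit, quantile normalisation, the trend, the block and leaving out each array.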

Additional observations from a re-analysis of the deposited data

Results flagged for a closer look

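Among the control probe sets, which entered no comparison, 2 exceeded wild type by at least 1 log2 unit in the mutant mean and were higher on both mutant arrays than on any other array. One 3′ probe set of actin and one of GAPDH were also higher on both mutant arrays, but by 0.05 and 0.16. Another 3′ probe set of each was not, with mean differences of -0.03 for actin and -0.105 for GAPDH. The one for 25S ribosomal RNA read 6.42 and 5.86 in wild type, 8.03 and 11.2 in the mutant and 6.28 and 6.61 in the overexpressor, a mean difference between mutant and wild type of 3.47. The other, an Arabidopsis control whose target the tables used do not name, read 1.97 and 1.97 in wild type, 4.81 and 4.84 in the mutant and 1.97 and 2.00 in the overexpressor, a difference of 2.86. Neither difference was tested. The control for 5S ribosomal RNA differed by 0.09 between mutant and wild type.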

How the results depend on the processing

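Of 1736 probe sets called (846 higher, 890 lower), 1009 (465 and 544) passed without a filter on low values and 466 (190 and 276) at an adjusted p below 0.01. With probe sets printed to more than 2 decimals left out, 1689 passed (819 higher, 870 lower). With the replicate block 1166 passed (553 higher, 613 lower), although the numbers did not pair the samples (correlations of -0.24, 0.16 and -0.31 between groups). With the mutant numbers exchanged, a pairing added after seeing the data, 2335 passed (1132 and 1203). Leaving out 1 array gave 167 to 1807 calls (52 to 875 higher and 115 to 932 lower), lowest without mutant replicate 1. Of the 26 calls near the floor (13 each way), a limit of 3.5 left 15 (8 higher, 7 lower), and leaving out 1 array 0 to 26 (0 to 13 each way), lowest without mutant replicate 2. Of 108 named probe sets that passed, 34 kept the call without each of the 6 arrays. Genes that changed sign did so at an adjusted p above 0.05. With quantile normalisation Prx37 stood at 0.0028 and MYBC1 at 0.0043. Leaving out 1 array gave changes of -0.16 to 0.03 for OPS, -0.04 to 0.12 for SBE2.2, -1.91 to 0.82 for STZ, -0.04 to 0.16 for LHW, -0.03 to 0.26 for UGT78D2, -0.11 to 0.02 for PYK10, -0.10 to 0.14 for PMEPCRF, -0.14 to 0.08 for Prx37, -0.21 to 0.19 for MYBC1, -0.015 to 0.185 for bHLH115, -0.14 to 0.60 for HAT2, -0.61 to 0.05 for CML42, -0.605 to 0.045 for CML30, -0.14 to 0.67 for CML23, -0.50 to 0.24 for HTB2 and -0.46 to 0.35 for ZIP6. The cause of these changes was not tested. Signal near the floor limits folds of scarce transcripts, and 2 arrays per group limit the rest.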
